A study of Mus musculus with 4 samples.

Results

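The keratin genes were taken as every row of the deposited expression table whose symbol is Krt followed by a number and at most 1 letter, which gave 45 of 16857 genes. RNA had been sequenced from 4 mouse adenoma colonoid lines, that is, tumour epithelium of the colon kept as gel-embedded cultures. The G2 lines are numbered 157 and 236 and carry the genotype label Apcnull/LSL-mTERT-homo, and the G0 lines are numbered 75 and 179 and carry Apcnull/LSL-mTERT-het. All 4 line names also hold Apcmin, so the controls share the Apc defect, and the series text frames the data as colonoids of low against high chromosomal instability. The labels do not expand G0 and G2, say what removes or drives the LSL-mTERT allele, or say whether each line came from its own mouse. Every p-value here therefore rests on the spread between these 4 lines, moderated in the limma fit by the spread of other genes.

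Keratins are the intermediate filament proteins of epithelial cells. A filament is built from pairs of 1 acidic type I and 1 basic or neutral type II chain, and the pairs change with the kind of epithelium. Simple epithelia such as the lining of the intestine are known for Krt8 with Krt18, Krt19 and Krt20, basal cells of stratified epithelia for Krt5 with Krt14, and the upper layers of moist stratified epithelia such as the oesophagus for Krt4 with Krt13. Hair keratins are rich in cysteine, harden the hair shaft together with the keratin-associated proteins, and also occur in nail and in the filiform papillae of the tongue. The 45 genes divided into 5 simple, 17 stratified, 2 other epithelial, 4 root sheath and 15 hair keratins, with Krt90 and Krt222 left without a class. By type, 22 were type I and 21 type II, besides these last 2 genes.

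Levels are normalized counts, which are whole counts recovered from the deposited log2 values and divided by the authors' size factors. The libraries held 16545429 to 17901744 counts, and keratins of every class together made up 1.297% to 1.495% of the summed level per kilobase in G2 and 1.097% to 1.317% in G0. Tert, the catalytic subunit of telomerase that the genotype labels name, stood at 0 and 0.977 normalized counts in G2 and at 93.3 and 97.5 in G0. Transcripts of the Y chromosome divided the libraries in the same way. Kdm5d stood at 526 and 522 in G2 and had no count in either G0 library, and the presence of a Y chromosome and the group cannot be told apart. The general epithelial gene Epcam stood at 6844 and 8669 in G2 and 5994.5 and 6994 in G0. Of the genes that define colon epithelium, Cdx1 was at or under 8.07 in every library and Cdx2 had 270 and 187 in G2 against 2395 and 3199 in G0, 12.2-fold lower in G2 (limma adjusted p = 0.000430).

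Of the 45 keratin genes, 33 had a mean of at least 1 normalized count and were tested. With limma and Benjamini-Hochberg adjustment over all 13981 genes tested, 13 keratins were higher and 3 lower in G2, 48.5% of those tested, where 10.5% of all genes passed. The share called higher was 39.4% of tested keratins against 5.93% of all genes, and the share called lower was 9.09% against 4.56%. The median log2 fold change of the tested keratins was 1.59, or 1.33 with the genes at 0 in one group placed at their lower bound, against 0.01 over all genes tested. The G2 and G0 libraries did not overlap for 25 of the 33 (75.8%), where this held for 57.8% of all genes. Keratins that passed the filter on low values through their G2 level alone had to differ, so these shares describe the list and are no test of it. The other 12 stood at 2.03 normalized counts or less in every library, 5 of them (Krt28, Krt42, Krt77, Krt82 and Krt222) without a count in any.

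Calls needed both libraries of each group. With any 1 library left out, limma called no keratin and no other gene, so the loss of calls was not particular to keratins. Ratios with a library left out are given for many of the keratins below. Without the filter on low values 1 keratin (Krt36) was called higher and 0 lower (16 and 3 at an unadjusted p under 0.05), and without the intensity trend in limma 9 and 0 were called (17 and 5). Over all genes, limma called 225 of 16857 without the filter and 623 of 13981 without the trend, against 1467 of 13981 in the main fit.

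The 2 greatest rises, those of Krt34 and Krt84, were in hair keratins. Of the 15 with a row, 11 were tested, 6 rose and 0 fell, and the other 5 tested did not pass. Of all genes tested, 5.93% were called higher and 4.56% lower. Krt31, Krt32, Krt33b and Krt81 stood at 1.02 or less in each G0 library. They passed the filter on low values through their G2 level, so they could not have been found lower in G2. Krt34, a type I keratin of the hair shaft on chromosome 11 from 100037347 to 100041554, stood at 5328 and 1200.3 normalized counts in G2 replicates 1 and 2, against 2.95 and 2.03 in G0 replicates 1 and 2. Both G2 lines lay far above both G0 lines, and the G2 lines differed 4.44-fold from each other. The ratio of the means was 1312 (log2 fold change 9.51, SE 0.64, adjusted p = 0.000475), 482 without G2 replicate 1 and 2141 without G2 replicate 2. Krt84, a type II hard keratin known from nail and tongue papillae, on chromosome 15 from 101525026 to 101532820, stood at 9012 and 2645 in G2 against 19.6 and 14.2 in G0. Its groups did not overlap, and G2 replicate 1 was again the higher line. The Krt84 ratio was 344 (log2 fold change 8.11, SE 0.52, adjusted p = 0.000464), 156 without G2 replicate 1 and 532 without G2 replicate 2.

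Krt36, a type I hard keratin also known from the tongue papillae, on chromosome 11 from 100102012 to 100109487, stood at 6725 and 5054 normalized counts in G2 against 114.9 and 131 in G0. Unlike Krt34 and Krt84 it was already at over 100 in G0, and its replicates lay close together. Krt36 rose 47.9-fold (log2 fold change 5.56, SE 0.18, adjusted p = 5.4e-05), with 41.1-fold and 54.7-fold as the lowest and highest ratio when 1 library was left out.

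The 3 other hair keratins that rose were at much lower levels. Krt81, a type II keratin of the hair cortex, had 58.5 and 8.80 normalized counts in G2 and no count in either G0 library, at least 11.2-fold higher against a floor of 3 counts per library (log2 fold change 4.59, SE 0.92, adjusted p = 0.0251), and the bound was 2.94 without G2 replicate 1 and 19.5 without G2 replicate 2. Krt31, a type I keratin of the hair cortex, had 89.8 and 10.8 in G2 against 0 and 1.02 in G0, 98.9 times the mean (95% counting interval 17.4 to 3966, log2 fold change 4.52, SE 0.999, adjusted p = 0.0341), and the ratio was 21.2 without G2 replicate 1, 177 without G2 replicate 2 and 49.5 without G0 replicate 1. Krt83, also of the hair cortex, had 249 and 141 in G2 against 22.6 and 57.9 in G0, and rose 4.84-fold (log2 fold change 2.34, SE 0.49, adjusted p = 0.0297). The Krt83 ratio was 3.37 without G0 replicate 1 and 8.63 without G0 replicate 2. G2 replicate 1 was the higher of the 2 lines for all 3. Krt31 and Krt81 missed the threshold with a pseudocount of 5 (adjusted p = 0.0576 and 0.0512) and on the deposited values as they stand (0.0870 and 0.0576).

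Of the hair keratins that did not pass, Krt87 had 672 and 86.02 normalized counts in G2 against 62.8 and 81.3 in G0 (log2 fold change 1.74, SE 0.83, 95% interval -0.23 to 3.70, adjusted p = 0.231). Its G2 replicate 2 lay just above the G0 lines and G2 replicate 1 stood alone. Krt39 had 114 and 51.8 in G2 against 34.4 and 27.4 in G0 (adjusted p = 0.114), Krt32 had 7.06 and 3.91 against no count in G0 (adjusted p = 0.0688), and Krt33a and Krt33b did not exceed 15.2 in any library. Krt35, Krt82, Krt86 and Krt88, the 4 hair keratins too low to test, had at most 2.03 in any library.

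**Figure D1:**
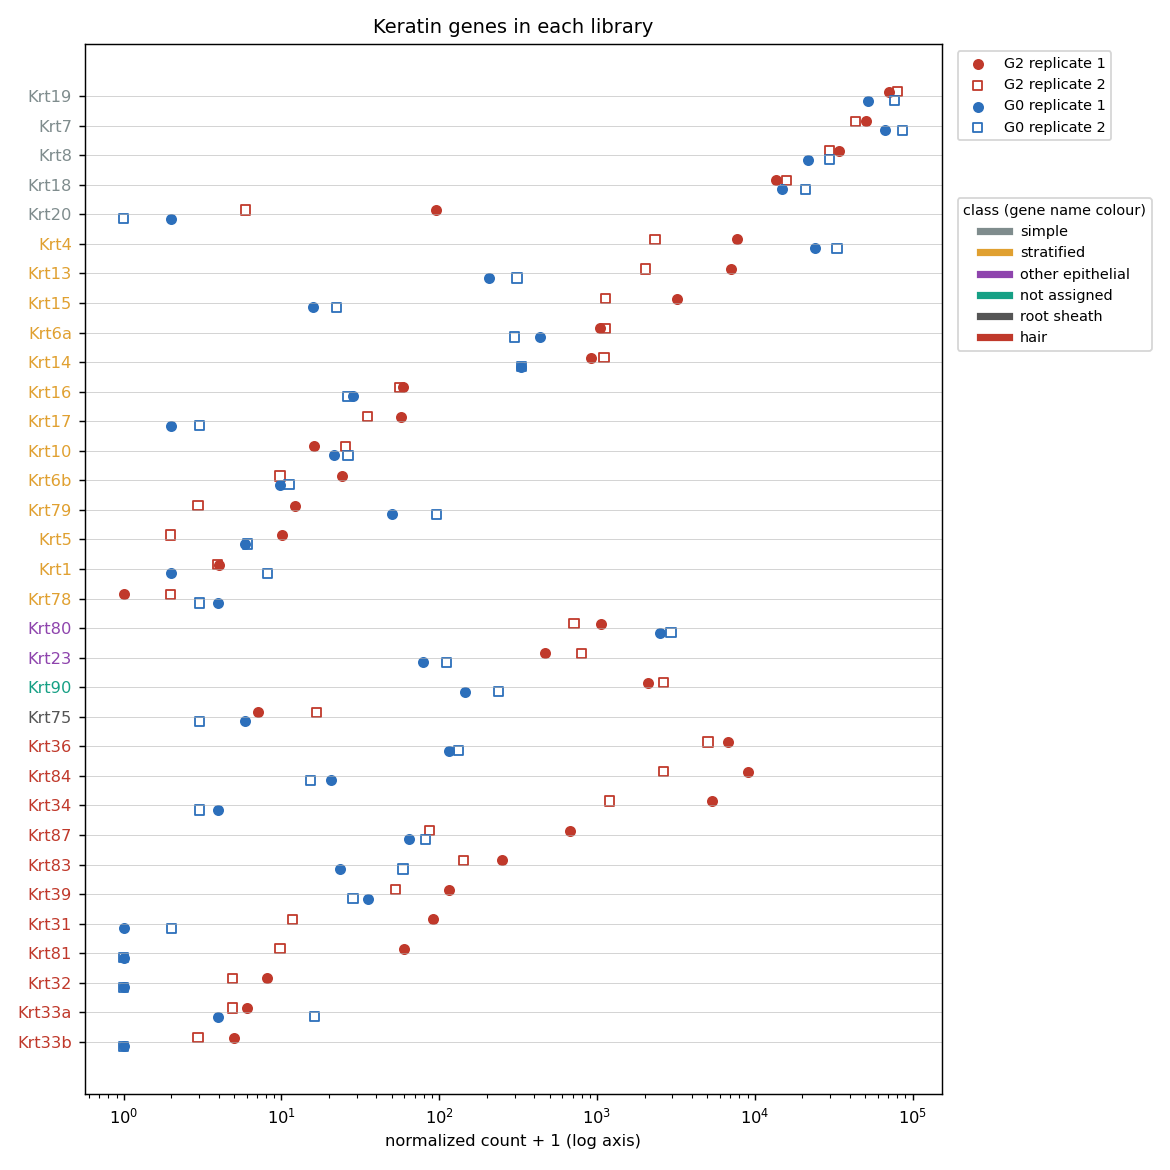
Normalized count plus 1 on a log axis for the 33 keratin genes tested, 1 row per gene, with G2 libraries in red and G0 libraries in blue (circles for replicate 1, squares for replicate 2) and gene names coloured by class. Krt34, Krt84 and Krt36 sit between 1200.3 and 9012 in G2 and at or under 131 in G0, while Krt19, Krt7, Krt8 and Krt18 lie at the right in all 4 libraries.

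The promoters of Krt34, Krt84 and Krt90 are given below because these genes rose in G2 and lie in both keratin clusters. Each line holds the 250 bases before the start site in the RefSeq promoter table (GRCm38.p6, the assembly of mm10), on the gene's strand, which is the minus strand for all 3. RefSeq windows were found for 28 of the 45 keratins. In 22 the start was the outer end of the annotated gene. In the other 6 it lay inside the gene, for Krt36 by 3861 bases, so no Krt36 sequence is shown. Capitals mark a TATA box (TATAAA), the LEF/TCF core (CTTTGA), the posterior HOX forms TTTATTG and TTTACGA, or the FOXN1 core (GACGC), searched on both strands, and none of the matches overlapped another.
Krt34, chr11:100041555-100041804: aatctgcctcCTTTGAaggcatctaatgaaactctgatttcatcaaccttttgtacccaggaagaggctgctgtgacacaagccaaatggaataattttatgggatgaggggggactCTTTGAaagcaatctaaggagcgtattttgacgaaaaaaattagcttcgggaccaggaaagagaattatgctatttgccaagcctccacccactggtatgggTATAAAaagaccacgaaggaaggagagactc
Krt84, chr15:101532821-101533070: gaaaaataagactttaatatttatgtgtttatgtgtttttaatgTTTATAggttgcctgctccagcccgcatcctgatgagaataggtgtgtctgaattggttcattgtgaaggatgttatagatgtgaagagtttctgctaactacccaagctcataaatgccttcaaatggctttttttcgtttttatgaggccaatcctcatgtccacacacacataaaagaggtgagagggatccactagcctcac
Krt90, chr15:101562951-101563200: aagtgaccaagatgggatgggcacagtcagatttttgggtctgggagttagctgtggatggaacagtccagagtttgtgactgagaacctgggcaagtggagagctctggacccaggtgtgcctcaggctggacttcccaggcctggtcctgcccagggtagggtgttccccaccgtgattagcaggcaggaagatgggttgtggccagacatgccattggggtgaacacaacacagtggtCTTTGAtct

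Krt34 had a TATA box beginning 31 bases before the start and the LEF/TCF core at 240 and 133 bases. Krt84 had TATAAA on the opposite strand at 206 bases, and Krt90 had the LEF/TCF core at 9 bases. Among all 28 keratin windows a TATA box stood in 12 (42.9%), against 13.0% of 27025 promoters of all genes. The LEF/TCF core stood in 8 (28.6%) against 14.05% of all promoters. The FOXN1 core stood in 4 (14.3%) against 22.6%, and the HOX forms stood in 0 against 4.42% for TTTATTG and 0.492% for TTTACGA. Such matches are letters in a window and not sites of binding.

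Stratified keratins moved in both directions. Of 17 with a row, 13 were tested, 5 rose and 2 fell, where 5.93% of all tested genes were called higher and 4.56% lower. Krt17, at 2.03 or less in each G0 library, passed the filter on low values through its G2 level. It could not have been found lower in G2. Krt15, a type I keratin of basal cells and of the hair follicle bulge, on chromosome 11 from 100131759 to 100135949, stood at 3222 and 1126 normalized counts in G2 against 14.7 and 21.3 in G0. The groups lay far apart. Krt15 rose 121-fold (log2 fold change 6.67, SE 0.47, adjusted p = 0.000517), or 62.5-fold without G2 replicate 1. Krt13, the type I partner of Krt4, stood at 7043 and 2034 in G2 against 205 and 309.8 in G0, and rose 17.6-fold (log2 fold change 3.90, SE 0.52, adjusted p = 0.00602), or 7.90-fold without G2 replicate 1 and 27.4-fold without G2 replicate 2.

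Krt14, the basal type I keratin, stood at 917 and 1107 in G2 against 329 and 332 in G0, and rose 3.06-fold (log2 fold change 1.61, SE 0.16, adjusted p = 0.00227). Its type II partner Krt5 had 9.08 and 0.977 in G2 against 4.91 and 5.08 in G0 (adjusted p = 0.785). Per kilobase, Krt14 averaged 596 in G2 and 195 in G0, and Krt5 averaged 2.29 in G2 and 2.27 in G0. Krt6a, a type II keratin known from injured and hyperproliferative epidermis, stood at 1045 and 1136 in G2 against 435 and 299.7 in G0, and rose 2.97-fold (log2 fold change 1.59, SE 0.21, adjusted p = 0.00547). Krt17, a type I keratin of skin appendages, had 56.5 and 34.2 in G2 against 0.982 and 2.03 in G0, 30.1 times the mean (95% counting interval 9.998 to 149, log2 fold change 4.20, SE 0.55, adjusted p = 0.00551). The Krt17 ratio was 22.3 without G0 replicate 1 and 46.2 without G0 replicate 2.

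Krt4, the type II keratin of the oesophageal kind of epithelium on chromosome 15 from 101918535 to 101924735, went the opposite way to its partner Krt13. Krt4 stood at 7674 and 2332 normalized counts in G2 against 24042 and 33254 in G0, a fall of 5.73-fold (log2 fold change -2.74, SE 0.50, adjusted p = 0.0180), or 12.3-fold without G2 replicate 1 and 3.73-fold without G2 replicate 2. Per kilobase of transcript the Krt13 level was 1.18 and 1.12 times that of Krt4 in G2, against 0.0110 and 0.0120 times in G0. The 2 genes were therefore near an equal level in G2, where Krt4 stood 90.8 and 83.2 times above Krt13 in G0. Krt79, a type II keratin of the hair follicle opening and gland ducts, had 11.1 and 1.95 in G2 against 49.1 and 95.5 in G0, and fell 11.1-fold (log2 fold change -3.54, SE 0.72, adjusted p = 0.0266), or 37.0-fold without G2 replicate 1 and 6.52-fold without G2 replicate 2. The stratified keratins that did not pass included Krt16, with 57.5 and 54.7 in G2 against 27.5 and 25.4 in G0 (adjusted p = 0.0938), and the epidermal genes Krt1 and Krt10, which stayed at or under 25.4 in every library.

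Among keratins outside these classes, Krt90 stood at 2099 and 2624 normalized counts in G2 against 144 and 237 in G0. It rose 12.4-fold (log2 fold change 3.66, SE 0.25, adjusted p = 0.000508), and its G2 lines were close to each other. Krt23, a type I epithelial keratin, stood at 465 and 798 in G2 against 77.6 and 111 in G0, and rose 6.71-fold (log2 fold change 2.70, SE 0.31, adjusted p = 0.00370). Krt80, a type II keratin of many differentiated epithelia, stood at 1054 and 715 in G2 against 2489 and 2940 in G0, and fell 3.07-fold (log2 fold change -1.64, SE 0.21, adjusted p = 0.00506). Of the 4 root sheath keratins only Krt75 could be tested, with 6.05 and 15.6 in G2 against 4.91 and 2.03 in G0 (adjusted p = 0.256).

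Simple keratins held ranks 1 to 4 by level per kilobase in G2 (Krt19, Krt8, Krt7 and Krt18), and 0 of the 5 passed (1 in each direction at an unadjusted p under 0.05). Over all genes tested 10.5% passed, so 0 of 5 lies near that share and says little about the class. Krt19 stood at 71386 and 80372 normalized counts in G2 against 52504 and 76712 in G0 (log2 fold change 0.26, SE 0.26, 95% interval -0.35 to 0.86, adjusted p = 0.562). Krt8 stood at 34427 and 29755 in G2 against 21799 and 29790 in G0 (0.33, SE 0.21, interval -0.17 to 0.83, adjusted p = 0.363), and its partner Krt18 at 13590 and 15800 against 14824 and 20994 (-0.27, SE 0.21, interval -0.76 to 0.22, adjusted p = 0.443). The groups overlapped for these 3 genes. Krt7, a type II keratin of ducts and of transitional epithelium, stood at 50548 and 43437 in G2 against 67095 and 86814 in G0, without overlap (-0.70, SE 0.23, interval -1.25 to -0.16, adjusted p = 0.103). Krt20, a marker of differentiated intestinal cells, had 93.8 and 4.89 in G2 against 0.982 and 0 in G0 (adjusted p = 0.0880). Krt20 was thus close to absent in 3 of 4 libraries.

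**Figure D2:**
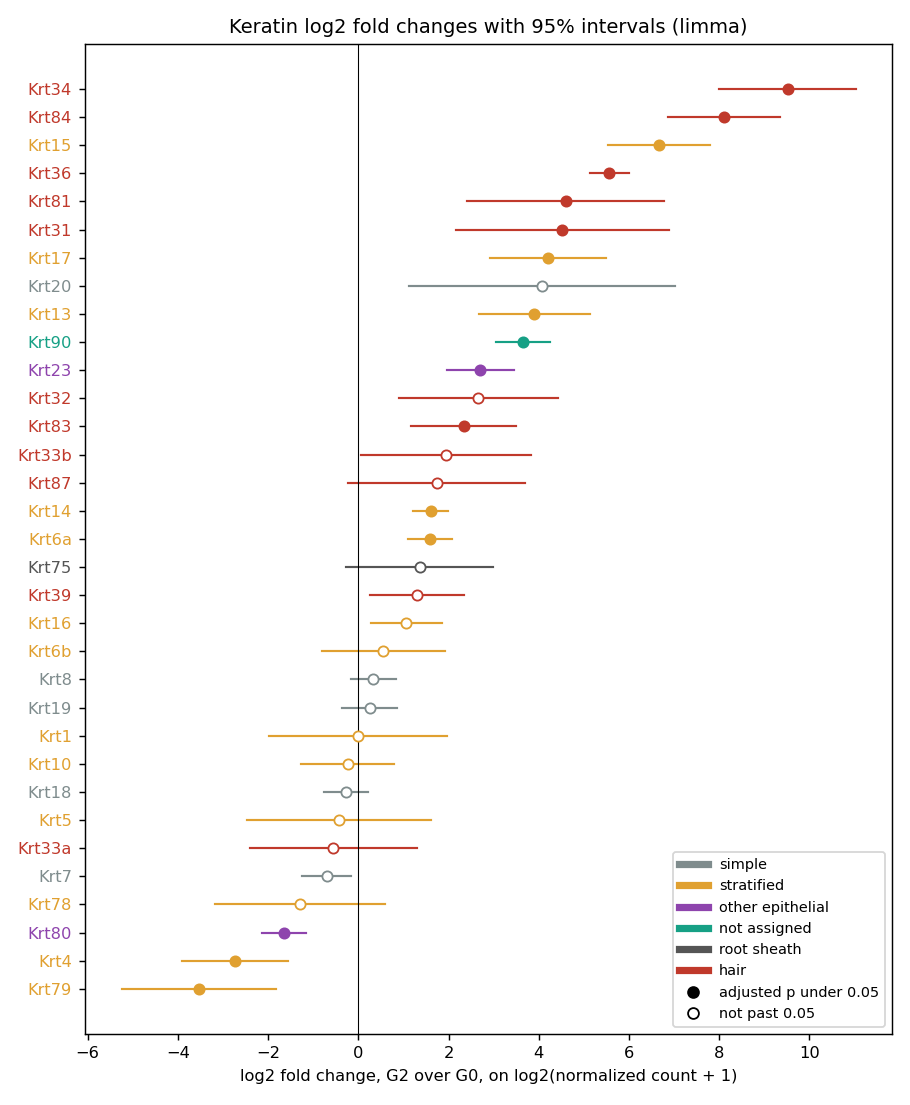
Log2 fold change of G2 over G0 for each tested keratin with its 95% interval from limma, ordered from the greatest rise to the greatest fall and coloured by class; filled points passed an adjusted p of 0.05. The 6 hair keratins that passed lie between 2.34 and 9.51, and the simple keratins Krt8, Krt19 and Krt18 lie close to 0.

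The make-up of the keratin pool differed accordingly. On summed levels per kilobase, hair keratins made up 10.6% and 5.03% of all keratin in G2 and 0.170% and 0.156% in G0. Stratified keratins made up 10.01% and 4.27% in G2, against 14.1% and 13.8% in G0, and simple keratins 78.1% and 88.9% in G2 against 84.8% and 85.2% in G0. Nearly all of the stratified level in G0 was Krt4, at 11271 of 11848 per kilobase in replicate 1 and 15590 of 16203 in replicate 2. In G2, Krt4 held 3598 of 10852 in replicate 1 and 1093 of 4212 in replicate 2. The stratified share in G2 thus joined the fall of Krt4 with rises of other genes. Krt13 stood at 4258 and 1230 per kilobase in G2 against 124 and 187 in G0. Krt36, Krt84 and Krt34 ranked 5, 8 and 9 of 45 by mean level per kilobase in G2, against 11, 20 and 25 in G0, while Krt19 ranked first in both. The ratio of summed type I to summed type II level, with Krt90 counted as type II from its place in that cluster, was 1.77 and 2.31 in G2 and 1.11 and 1.203 in G0. Not divided by length it was 1.02 and 1.30 in G2 and 0.587 and 0.643 in G0, so which type exceeded the other in G0 turned with the unit. These are values without a test, since an exact permutation of 2 against 2 libraries has 0.333 as its smallest two-sided p. In bulk RNA, a change in the share of cells that make a keratin and a change in its level per cell cannot be told apart.

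**Figure D3:**
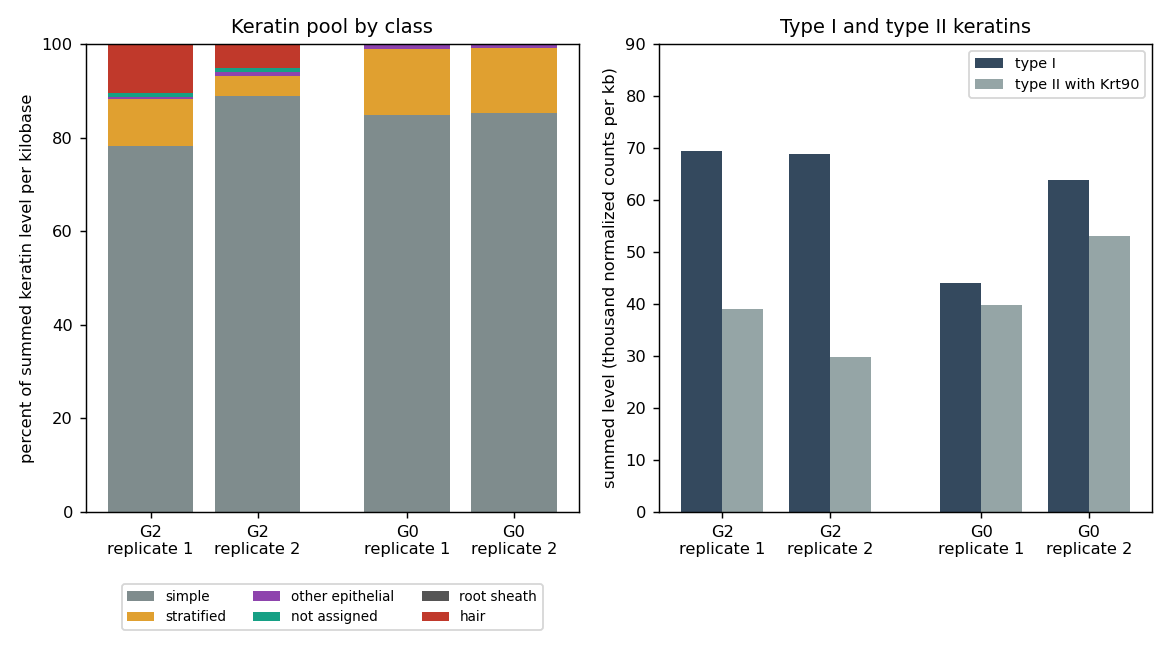
Left, the percent of the summed keratin level per kilobase in each class, 1 bar per library; right, the summed level of type I and type II keratins in normalized counts per kilobase, with the axis scaled as its label states. The hair share is 10.6% and 5.03% in the G2 libraries and under 0.2% in the G0 libraries, and per kilobase type I exceeds type II more in G2.

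Keratin genes lie in 2 clusters, and calls were found in both. Over all genes tested, 5.93% were called higher in G2 and 4.56% lower. The counts with a row below also include keratins too low to test. The shorter stretches are described for the calls in them, so their counts are no test of position. The type I cluster on chromosome 11 spans 1037 kilobases from 99232761 to 100269951, and 8 of its 22 keratins with a row rose and 0 fell. Of these, 5 lie in a stretch of 112 kilobases from Krt33b to Krt15 (100023634 to 100135949), where all 8 genes annotated in RefSeq are keratins. GENCODE M21 also places Gm11571 there, on the strand opposite Krt32. Krt34, Krt31, Krt36, Krt13 and Krt15 rose there, and Krt33b, at the edge of the stretch, and Krt32 and Krt35, between genes that rose, stood at or under 7.06 normalized counts in every library. Krt19, the next keratin after Krt15, did not pass. The type II cluster on chromosome 15, which also holds the type I gene Krt18, spans 684 kilobases from 101348315 to 102032026, and 5 of its 23 keratins with a row rose and 3 fell. Krt84 and Krt90 rose on either side of Krt82, which had no count in any library, within 37.9 kilobases. The 2 stratified keratins that fell, Krt4 and Krt79, are next to each other within 21.8 kilobases. In G2, Krt32 had 7.06 and 3.91 and Krt33b had 4.03 and 1.95, against no count in G0, and neither passed. Krt35 and Krt82 were too low to test, so whether a rise was shared by every gene of a stretch was not tested.

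**Figure D4:**
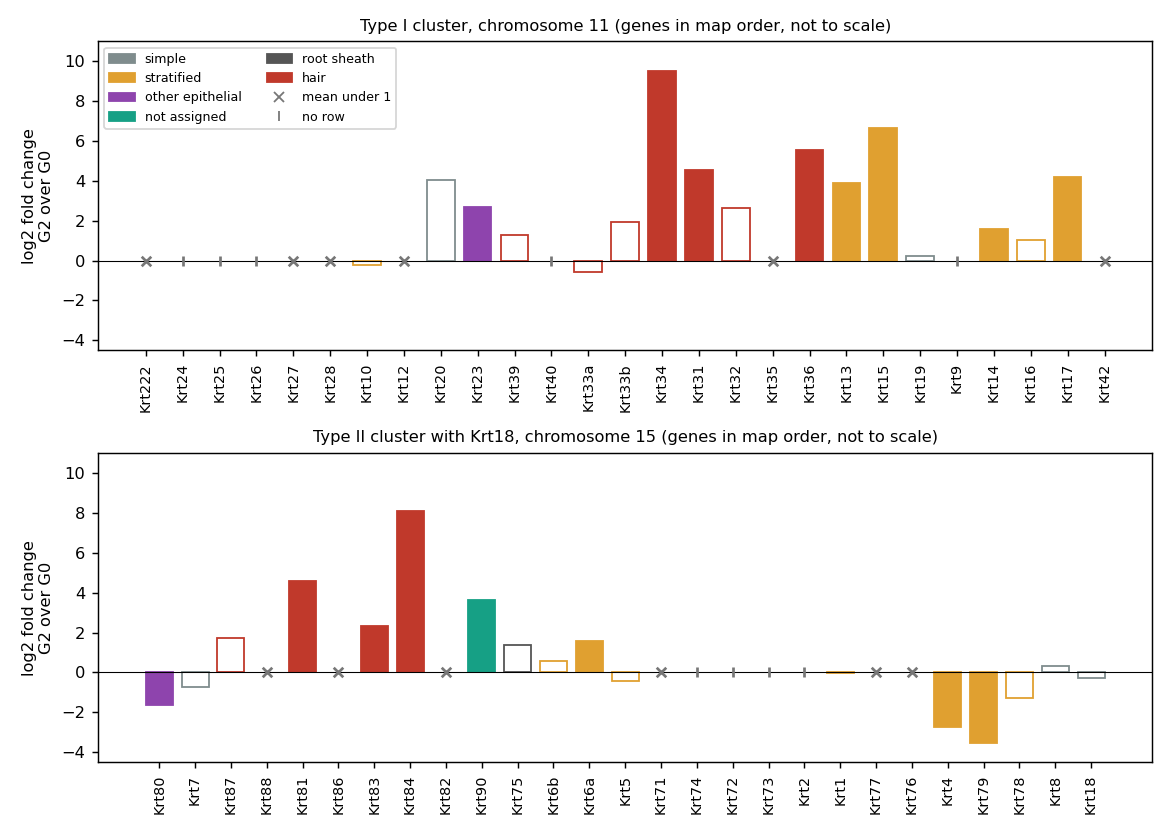
Log2 fold change of G2 over G0 for the annotated keratins in map order (not to scale) in the chromosome 11 cluster (top) and the chromosome 15 cluster (bottom), coloured by class, with filled bars for genes past an adjusted p of 0.05, crosses for genes with a mean under 1 and ticks for genes without a row. Krt34 to Krt15 form a run on chromosome 11 with genes under the filter or past no threshold between the high bars, and Krt4 and Krt79 form the downward pair on chromosome 15.

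Sequence shared between keratins limits some of these values. Of the 50-base words in the longest coding transcript (GENCODE M21), 33.1% of those of Krt34 also occur in another gene, most often Krt31, and 28.1% of those of Krt31, most often in Krt34. The share was 43.5% for Krt81 and 23.2% for Krt83, most often with Krt86, which had at most 1.96 normalized counts, and 62.0% for Krt6a, most often with Krt6b. For Krt36, Krt84, Krt13, Krt15, Krt4, Krt23 and Krt79 it was at most 0.67%. How the authors' counting divided such reads is not given in the sources used here, so the low values of Krt31, Krt81 and Krt83, and that of Krt6a, are uncertain. Exons of 12 keratins, among them Krt90, Krt80, Krt7 and Krt8, overlap an annotated transcript on the opposite strand, and with the strand setting not given, reads of the pair cannot be told apart.

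The G2 lines differed in how far these genes rose. G2 replicate 1 was the higher line for 9 of the 13 keratins that rose, and at least 2 times higher for 6 of them (Krt13, Krt15, Krt31, Krt34, Krt81 and Krt84). Over all 829 genes called higher in G2, replicate 1 was the higher line for 399 (48.1%) and at least 2 times higher for 43 (5.19%). Krt90, Krt23, Krt14 and Krt6a were higher in G2 replicate 2, though by less than 2 times.

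Regulators of hair keratins were measured beside them, from a list of 15 genes with a row. Of the 12 tested, 3 rose and 0 fell (median log2 fold change 0.43, against 0.01 over all genes). Among all genes tested, 5.93% were called higher and 4.56% lower. Foxn1, the forkhead factor whose loss gives the nude mouse with its defective hair shafts, stood at 2553 and 1009.7 normalized counts in G2 against 23.6 and 30.5 in G0. It rose 65.9-fold (log2 fold change 5.85, SE 0.42, adjusted p = 0.000525), or 37.4-fold without G2 replicate 1, and was higher in G2 replicate 1 as were Krt34 and Krt84. Sox21, known in mice for its part in the hair cuticle, stood at 4112 and 4774 in G2 against 802 and 697 in G0, and rose 5.93-fold (adjusted p = 0.000315). Gata3, a factor of the inner root sheath, had 59.5 and 53.8 in G2 against 12.8 and 21.3 in G0, and rose 3.32-fold (adjusted p = 0.0407). Hr, which encodes the hairless corepressor, had 186 and 226 in G2 against 127 and 119 in G0 (adjusted p = 0.0923). Hoxc13, the homeobox factor that hair keratin genes need in skin, had 1.009 in G2 replicate 1 and no count in the other 3 libraries.

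Keratin-associated proteins and cross-linking genes of the hair were also listed. Of 18 keratin-associated protein genes with a row, 9 had no count in any library and 2 could be tested. Krtap1-5 had 282 and 149 in G2 against 63.8 and 55.9 in G0, and rose 3.60-fold (adjusted p = 0.0242), or 2.48-fold without G2 replicate 1, and Krtap3-2 had 10.1 and 3.91 in G2 against 8.84 and 6.09 in G0 (adjusted p = 0.877). Of 10 tested genes of trichohyalin and hair cross-linking, 1 rose, the deiminase gene Padi4, at 176 and 182 in G2 against 20.6 and 29.5 in G0 (adjusted p = 0.00313), and 0 fell, a share of calls near the 10.5% of all genes. Tchh, which encodes trichohyalin of the inner root sheath, had 272 and 302 in G2 against 166 and 169 in G0 (adjusted p = 0.0532). The list of hair follicle markers, which overlaps those above, had 3 of 8 tested members that rose (Foxn1, Krt31 and Gata3), where 5.93% of all genes did. Of these, Krt31 passed the filter on low values through its G2 level and could not have been found lower.

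Regulators of stratified epithelium showed 6 that rose and 1 that fell of 16 tested, with a median log2 fold change of 0.92. Over all genes tested, 5.93% were called higher and 4.56% lower. Maf, a factor of epidermal differentiation, stood at 949 and 912 in G2 against 323 and 274 in G0 and rose 3.12-fold (adjusted p = 0.00216). Klf5 rose 2.06-fold and Ehf 1.86-fold (adjusted p = 0.00615 and 0.0138), and the gene that fell was Klf4. Sox2, a factor of the foregut and of squamous epithelium, had 48.4 and 21.5 in G2 and no count in G0, at least 11.7-fold higher (adjusted p = 0.00529), or 7.18-fold without G2 replicate 1. Sox2 passed the filter on low values through its G2 level, so it could not have been found lower in G2. Trp63, the master regulator of stratified epithelium, had 12.1 in G2 replicate 1 and no count in the other 3 libraries (adjusted p = 0.386).

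Partners of the keratin filament are set against 5.93% of all tested genes called higher in G2 and 4.56% called lower. Of 16 tested desmosome and plakin genes 4 rose and 1 fell (median 0.40), among them the desmogleins Dsg3, at 116 and 105 in G2 against 12.8 and 11.2 in G0 (adjusted p = 0.00301), and Dsg4, which skin makes in the hair shaft, at 36.3 and 30.3 in G2 against 0 and 1.02 in G0 (adjusted p = 0.00587). Dsg4 passed the filter on low values through its G2 level, so it could not have been found lower in G2. Evpl rose 1.68-fold and Pkp1 1.71-fold (adjusted p = 0.0262 and 0.0290), and Dsc2 fell. Of 14 tested cornified envelope genes 5 rose and 1 fell (median 0.96). Lor, which encodes loricrin, stood at 4667 and 693 in G2 against 47.1 and 52.8 in G0 and rose 53.6-fold (adjusted p = 0.00868), or 13.9-fold without G2 replicate 1 and 93.4-fold without G2 replicate 2, while Cnfn had 0 and 0.977 in G2 against 59.9 and 149 in G0 (adjusted p = 0.00254). Tgm1 and Rptn rose 1.78-fold and 9.33-fold (adjusted p = 0.0103 and 0.0211). Of 12 proteins that bind or regulate keratin filaments 2 rose and 1 fell (median 0.03), with Trim29 at 81.7 and 85.04 in G2 against 4.91 and 8.13 in G0 (adjusted p = 0.00387), Hspb1 2.37-fold higher (adjusted p = 0.00769) and Krtcap2 1.61-fold lower (adjusted p = 0.0339). Other intermediate filament genes showed 0 that rose and 2 that fell of 11 tested (median -0.50), Nes at 3.11-fold and Lmnb1 at 1.56-fold lower (adjusted p = 0.0181 and 0.0266), with 0 higher at an unadjusted p under 0.05.

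**Figure D5:**
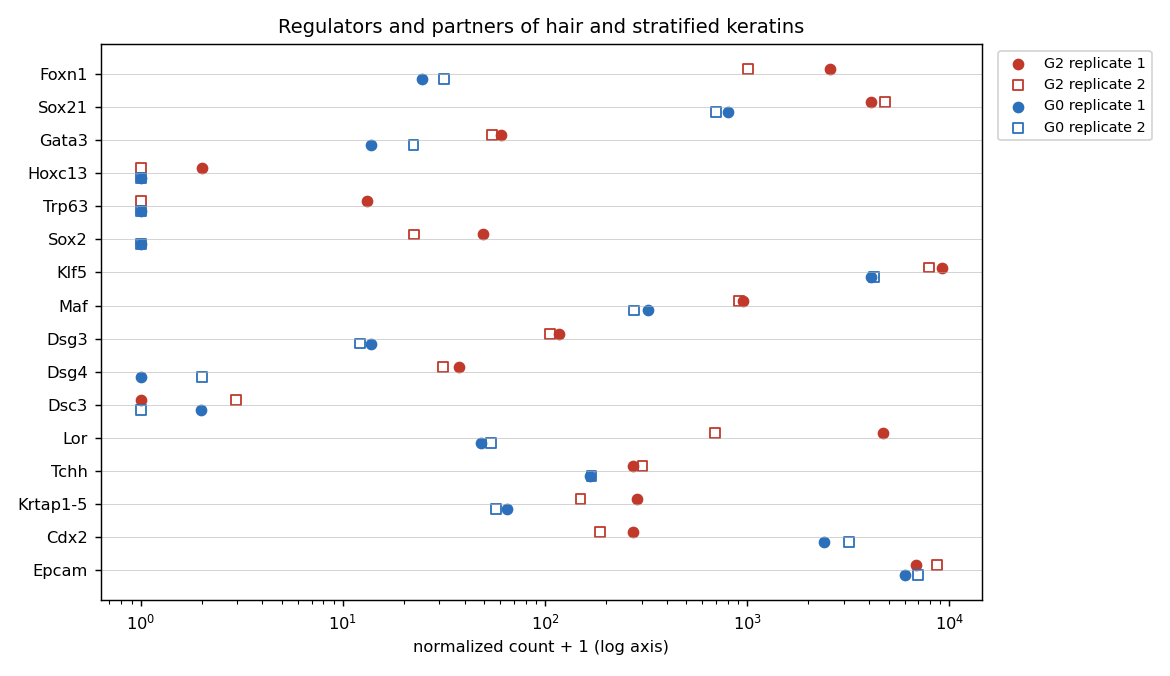
Normalized count plus 1 on a log axis for regulators and partners of hair and stratified keratins, with Cdx2 and Epcam as colon epithelial genes, G2 libraries in red and G0 libraries in blue. Foxn1 sits at 2553 and 1009.7 in G2 and at 23.6 and 30.5 in G0, while Hoxc13, Trp63 and Dsc3 have at most 12.1 in any library.

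Markers of the cells that these keratins are known from were set beside them. The counts of calls below stand beside 5.93% of all tested genes called higher in G2 and 4.56% called lower. Of the squamous and basal markers, 6 of 13 tested rose and 1 fell, of which 3 and 1 are keratins already described. Without keratins their summed level was 7110 and 2645 normalized counts in G2 and 1192 and 1397 in G0, mostly Lor and Pkp1, and the defining genes Trp63, Dsc3 and Krt5 stood at 12.1 or less in every library. Of the hair follicle markers without keratins, the summed level was 2889 and 1369 in G2 and 207 and 229 in G0, nearly all Foxn1 and Tchh, with Hoxc13 and Msx2 at 1.02 or less. Of 13 colon epithelium markers 3 rose and 3 fell, with Cdx2, Cdh17 and Vil1 12.2-fold, 5.26-fold and 4.42-fold lower in G2 (adjusted p = 0.000430, 0.00417 and 0.0103), and Vil1 7.06-fold lower without G2 replicate 1. Fibroblast markers summed to 10.1 and 10.8 in G2 and 4.91 and 6.09 in G0 (1 of 2 tested rose, Col3a1) and melanocyte markers to 10.1 and 17.6 in G2 and 15.7 and 23.4 in G0 (0 of 2 tested passed, also at an unadjusted p under 0.05). Endothelial markers summed to 99.8 and 113 in G2 and 21.6 and 27.4 in G0, with Tek and Vwf higher and Pecam1 and Cdh5 at 1.95 or less. Blood cell markers were carried by Cd68, at 1151 and 1892 in G2 and 1129 and 2110 in G0, with Csf1r higher in G2 at 16.1 and 4.89 against no count in G0 and Ptprc without a count in any library. Col3a1 and Csf1r, without a count in G0, passed the filter on low values through their G2 level, so they could not have been found lower. The part that other cell types play in the keratin values was not tested.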

How the data were processed

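RNA was sequenced from 4 colonoid lines, 2 per group, grouped by their titles. Build mm10 and the tools HISAT2 2.1.0, StringTie 2.1.1, DESeq2 1.32.0, bcl2fastq 2.20.0 and R 3.5.2 stand, without roles, in the submitters' processing notes. Annotation, strand setting and read filters were not given in sources used here. Values deposited by the authors are on a log2 scale whose lowest value is 6.508 in every library, which is where a variance-stabilizing transformation places 0 counts. It was inverted from that value alone, and 1 size factor per library (0.9844 to 1.0231) then made 100% of values whole within 0.001. These whole numbers can be rounded estimates, so no negative binomial test was run.

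limma 3.58.1 in R 4.3.3 (eBayes with intensity trend, group as the only term) was fitted, on the log2 of the normalized count plus 1, to the 13981 genes whose mean reached 1, and p-values are two-sided, adjusted by Benjamini-Hochberg over all of them, with a threshold of 0.05. The code was tested on simulated counts. Fold changes are ratios of mean normalized counts; a group at 0 was set at a floor of 3 counts per library, and 95% exact intervals and floors cover counting error only. Log2 fold changes on this scale understate the change of low genes. Levels were divided by the longest coding transcript of GENCODE M21, and positions are those of RefSeq on GRCm38.p6. Full values were given for keratins past the threshold or with a mean of at least 100, and up to 4 genes with the smallest p per companion list, plus Trp63, Hoxc13 and Foxn1; other genes were named after their values were seen. The members and lists were chosen with earlier results of these data known. The alternatives were other pseudocounts, filters, scaling, no trend, a replicate block and leaving out each library.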

Additional observations from a re-analysis of the deposited data

How the results depend on the processing

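The counts of 1467 genes called, 13 keratins higher and 3 keratins lower held within 1.5 times with pseudocounts of 5 and 0.5, a mean of at least 5, the deposited values and upper quartile rescaling. Without a filter 225 genes, 1 keratin higher and 0 lower were called, and without the intensity trend 623 genes and 0 keratins lower; the cause was not tested. With the replicate number as a block 3503 genes were called, with 17 keratins higher and 4 lower, Krt7 and Krt87 among those gained (adjusted p = 0.0208 and 0.0141). The numbers pair the lines by name only (deviations of the same-numbered lines correlated at 0.109 across genes), and that fit leaves 1 residual degree of freedom. Leaving out 1 library gave 0 to 0 genes called, 0 to 0 keratins higher and 0 to 0 lower, by limma with the lone sample assumed to vary like the other group; at an unadjusted p under 0.05, 2376 to 3221 genes were found. Of the 21 keratins given in full, 1 changed direction in these fits: Krt19, which had not passed, had a log2 fold change of -0.0183 to 0.5287 with 1 library left out (-0.0183 without G0 replicate 1). The hair share of the keratin level in G2 was 7.79% (5.03% to 10.6% with 1 library left out, 7.57% not divided by length). In G0 it was 0.163%, 0.137% not divided by length and 0.156% to 0.170% with 1 library left out. At this depth, levels of 3 counts or fewer per library are at the limit of detection.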
